A study of Homo sapiens with 11 samples.

Results

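The 10 genes described here encode parts of the heterotrimeric G-protein machinery. They were taken by symbol from the raw count table, where all 10 of the 38557 listed genes were found and all 10 were tested. GNAS encodes the stimulatory alpha subunit (Gs alpha), and the study counts it among signaling molecules. GNAI2 and GNAI3 encode inhibitory alpha subunits (Gi), GNAQ, GNA11 and GNA15 alpha subunits of the Gq class, and GNA12 and GNA13 those of the G12 class. GNB1 encodes a beta subunit and ADCY7 an adenylyl cyclase. A G protein rests as a trimer of alpha, beta and gamma subunits and is switched on when a receptor makes its alpha subunit exchange GDP for GTP. Gs alpha then stimulates adenylyl cyclases to make cAMP and Gi alpha subunits restrain some of them. Gq subunits act on phospholipase C-beta, and G12 subunits on exchange factors for the GTPase RhoA. In myeloid cells, receptors for prostaglandin E, histamine and chemokines signal through these proteins.

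RNA had been sequenced from MOLM-13, an established human acute myeloid leukemia line with a rearranged KMT2A gene, after 72 h of treatment. The 4 control libraries came from cells kept in the solvent DMSO. Another 4 came from cells in 1 µM MI-503, an inhibitor of the KMT2A partner protein Menin, and 3 (replicates 1, 2 and 4) from cells in 1 µM MI-503 plus 100 nM PR-957, which blocks PSMB8 of the immunoproteasome. This last group is called the combination. In a separate comparison of PR-957 alone with DMSO in MOLM-13, the study lists GNAS among KMT2A-target genes that were lower. The figure it cites for that list shows genes that changed more than 2-fold, while calls below have no fold threshold. The study also shows binding tracks of the protein BASP1 at the GNAS locus after DMSO or PR-957. Here no library received PR-957 alone, and all libraries come from 1 cell line. The labels do not say that replicates were separate cultures, so p-values measure only the spread between these libraries. Markers fitted a myeloid line: PTPRC, CD33, SPI1, FLT3 and CEBPA were present in every library at 32.7 CPM (counts per 1 M fragments) or more. CD3D, CD3E, MS4A1, HBA1, EPCAM and KRT19, which mark T, B, erythroid and epithelial cells, had at most 2 counts in any library. Totals ran from 18.9 to 41.2 M counted fragments. Combination replicate 1 stood apart: its chi-square against replicates 2 and 4, divided by the degrees of freedom, was 19.4 and 33.3, and that of the other pairs within a group 1.71 to 5.97. CPM below are relative to library totals scaled by the TMM method, and calls are genes with an adjusted p under 0.05 in edgeR's quasi-likelihood test over all 14683 tested genes.

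GNAS lies on chromosome 20 (hg38, 58839681 to 58911196, plus strand) and holds 7665 exon bases in the annotation used for counting. The locus starts transcripts at several promoters, and counts per gene add up all of them, so the Gs alpha transcript cannot be told apart from the others here. Its antisense gene GNAS-AS1 had 12 counts over all 11 libraries together. RefSeq start windows of 300 bases were taken from a table on GRCh38.p14. They number 17 for 8 of the 10 genes, 6 of them for GNAS, and the table had no entry for GNAQ and GNA15. Which of the 6 GNAS windows, if any, holds the start of the Gs alpha transcript was not determined. The windows were searched on both strands for the cAMP response element TGACGTCA, for its 5-base core TGACG (which the whole element contains) and for the GC box GGGCGG. The whole element was in 0 of the 17 windows, and in 1.85% of the 35116 windows of the table. The core element was in 6 of 17 (24.6% of the table) and the GC box in 8 of 17 (45.0% of the table). A match is a description of these letters only. Windows are shown for GNAS (the most downstream of its 6), for the inhibitory pair GNAI2 and GNAI3, whose RNA went opposite ways in MI-503, and for ADCY7, which differed most. Capitals mark the core element (TGACG or CGTCA) and the GC box (GGGCGG or CCGCCC), and each window reads 5′ to 3′ on the plus strand, which is the gene's strand.
GNAS, chr20:58888930-58889229: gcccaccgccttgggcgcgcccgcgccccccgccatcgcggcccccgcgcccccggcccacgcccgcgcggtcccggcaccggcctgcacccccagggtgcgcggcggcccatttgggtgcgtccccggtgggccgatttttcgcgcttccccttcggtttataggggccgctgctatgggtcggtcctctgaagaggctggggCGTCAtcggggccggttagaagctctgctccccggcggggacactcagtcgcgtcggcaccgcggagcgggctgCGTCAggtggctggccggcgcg
GNAI2, chr3:50235954-50236253: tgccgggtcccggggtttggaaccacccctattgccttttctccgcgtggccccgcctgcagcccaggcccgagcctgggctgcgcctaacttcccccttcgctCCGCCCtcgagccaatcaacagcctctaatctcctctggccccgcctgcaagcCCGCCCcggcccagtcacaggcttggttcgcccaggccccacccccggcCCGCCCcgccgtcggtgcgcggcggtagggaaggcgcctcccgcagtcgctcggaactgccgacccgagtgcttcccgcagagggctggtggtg
GNAI3, chr1:109548365-109548664: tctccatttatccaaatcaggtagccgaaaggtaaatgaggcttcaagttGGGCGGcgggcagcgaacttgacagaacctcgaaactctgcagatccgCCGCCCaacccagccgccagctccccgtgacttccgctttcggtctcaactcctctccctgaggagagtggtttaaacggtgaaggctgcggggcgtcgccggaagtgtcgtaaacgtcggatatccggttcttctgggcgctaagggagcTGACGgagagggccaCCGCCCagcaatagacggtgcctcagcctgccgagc
ADCY7, chr16:50266301-50266600: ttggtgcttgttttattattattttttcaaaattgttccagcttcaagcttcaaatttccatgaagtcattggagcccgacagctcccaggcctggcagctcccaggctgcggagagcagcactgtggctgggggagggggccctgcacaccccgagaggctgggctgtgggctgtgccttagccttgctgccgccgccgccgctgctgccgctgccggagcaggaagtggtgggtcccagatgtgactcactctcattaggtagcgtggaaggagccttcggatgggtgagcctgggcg
The GNAS window held the core element 2 times and the GNAI2 window shown the GC box 3 times. Windows of GNAI2 that are not shown differed: chr3:50246660-50246959 held the core element 2 times and no GC box, and chr3:50230287-50230586 held neither. The GNAI3 window held the core element 1 time and the GC box 3 times, and neither was in the ADCY7 window. That ADCY7 window lies inside the annotated gene, which starts at 50246138.

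The question for MI-503 against DMSO was how G-protein genes respond to Menin inhibition, and for the combination against both what differs when PR-957 is added. In MI-503, GNAI2, GNA12, GNA13 and ADCY7 were higher and GNAI3, GNAQ, GNA11 and GNB1 lower than in DMSO, while GNAS and GNA15 were not called. In the combination, GNAS, GNAI3, GNAQ, GNA11, GNA12, GNA15 and GNB1 were lower than in DMSO and GNA13 and ADCY7 higher, while GNAI2 was not called. Against MI-503, the combination was lower in GNAS, GNAI2, GNA12, GNA15 and GNB1, higher in GNAI3, and not called for GNAQ, GNA11, GNA13 and ADCY7. Called genes were common: 51.4% of all tested genes were called between MI-503 and DMSO, 64.5% between the combination and DMSO and 47.4% between the combination and MI-503. Of the 10 members 8, 9 and 6 were called. The compared groups did not overlap for 8, 10 and 6 members, and for 50.3%, 60.5% and 47.6% of all tested genes. Lower calls made up 29.3%, 32.8% and 23.8% of all tested genes in that order, against 4, 7 and 5 of the 10 members, and higher calls 22.0%, 31.7% and 23.6%, against 4, 2 and 1. The member medians were −0.01, −0.21 and −0.12 on the log2 scale, beside −0.03, 0.01 and 0.00 over all tested genes. No member changed 2-fold or more, a size at which 5.56%, 11.9% and 4.47% of tested genes were called. The comparisons share libraries, so their values are given side by side and are not independent. In these bulk libraries, fewer cells of one state and less RNA per cell cannot be told apart. Upper-quartile scaling gave 3 members higher and 5 lower between the combination and DMSO, and without combination replicate 1 the split was 3 higher and 7 lower.

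**Figure D1:**
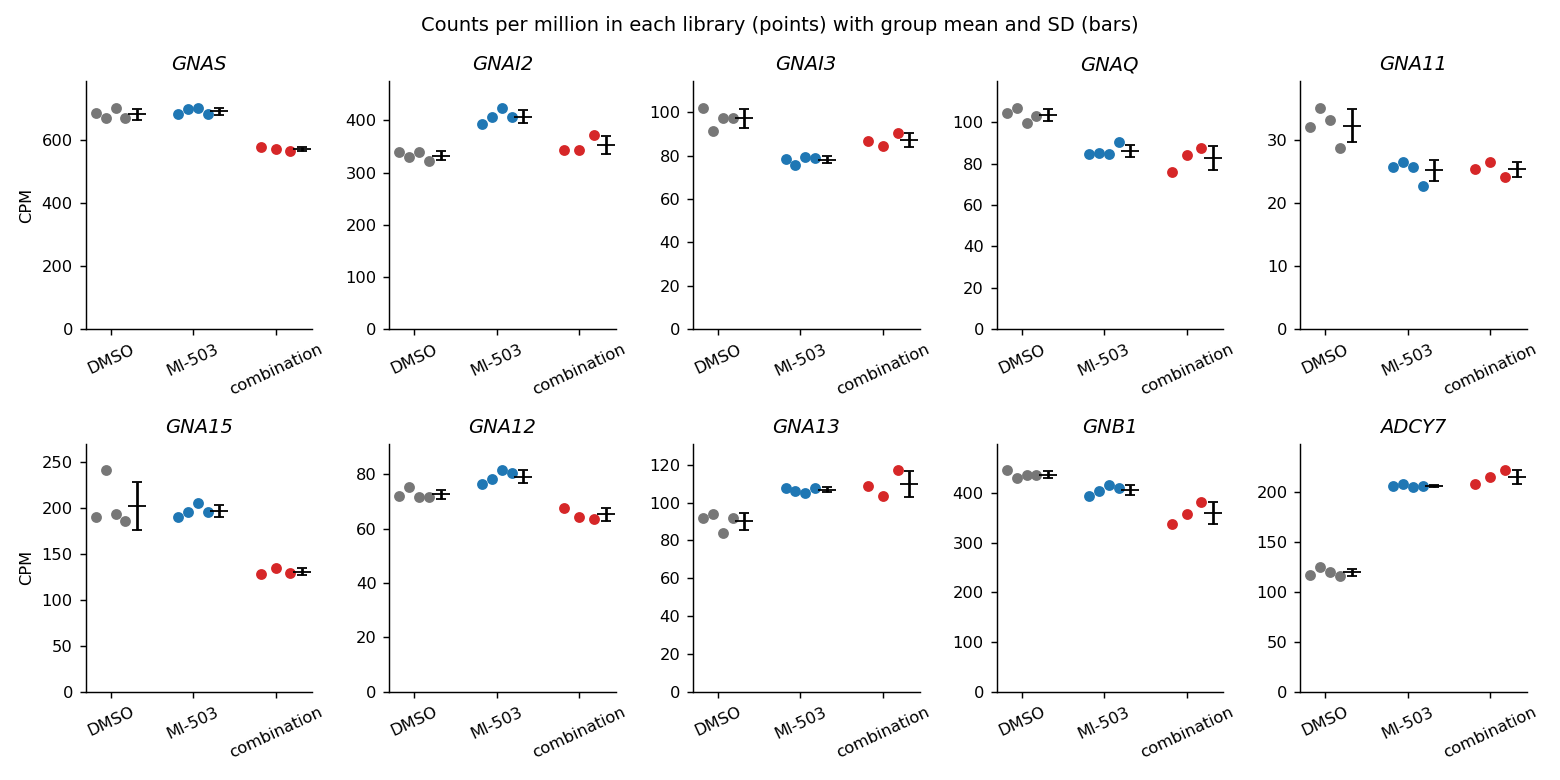
CPM (counts per 1 M fragments, vertical axes from 0) of the 10 genes in each of the 11 libraries, grouped as DMSO (n = 4), MI-503 (n = 4) and combination (n = 3), with points in replicate order and black bars for the mean and SD. GNAS sits between 565 and 578 CPM in the combination, below all DMSO and MI-503 libraries, and ADCY7 sits at 204.7 CPM or more in every treated library.

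**Figure D2:**
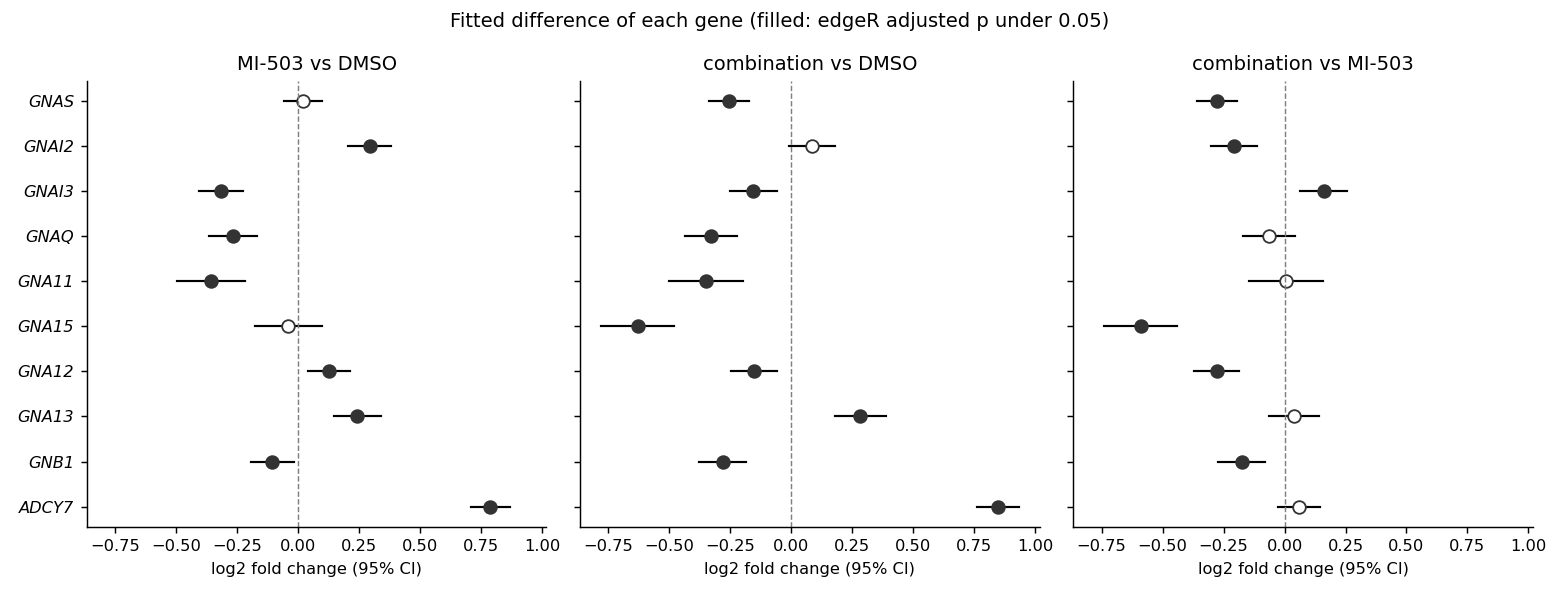
Fitted log2 fold change of each gene (points) with its 95% confidence interval (lines) in the 3 comparisons, filled where the edgeR adjusted p was under 0.05. The GNAS point moves from 0.02 in MI-503 vs DMSO to −0.28 in combination vs MI-503, and GNA15 has the largest negative value in the combination.

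GNAS was the member with the most fragments in every group. It measured 686, 669.8, 704 and 669.9 CPM in DMSO replicates 1 to 4, and 685, 699, 702 and 682 CPM in MI-503 replicates 1 to 4. In combination replicates 1, 2 and 4 it measured 578, 571 and 565 CPM. The DMSO and MI-503 libraries overlapped, and each of the 3 combination libraries was below each of the other 8. Mean CPM ± SD were 682 ± 16.3 (DMSO, n = 4), 692 ± 9.8 (MI-503, n = 4) and 571 ± 6.49 (combination, n = 3). MI-503 differed from DMSO by 0.02 on the log2 scale, with a 95% confidence interval from −0.06 to 0.10 (edgeR adjusted p = 0.677). With a stricter filter on low values (at least 5 CPM in 3 or more libraries) this difference became 0.09 and was called (edgeR adjusted p = 0.0362), while the alternatives as a whole gave 0.01 to 0.09. The combination was lower than DMSO by −0.26 (SE 0.04, edgeR adjusted p = 2.06e-05) and lower than MI-503 by −0.28 (SE 0.04, edgeR adjusted p = 2.28e-05), a change of −17.4% from MI-503. Without combination replicate 1 these were −0.25 and −0.31.

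The inhibitory subunits GNAI2 (chromosome 3, 50227068 to 50259362) and GNAI3 (chromosome 1, 109548615 to 109600195), both on the plus strand, differed from DMSO in opposite directions in MI-503. GNAI2 measured 339, 329.8, 339 and 322 CPM in DMSO, 393, 407, 425 and 406 CPM in MI-503, and 343, 344 and 372 CPM in the combination. All MI-503 libraries lay above all others, and the combination lay between the MI-503 and DMSO ranges. GNAI2 was higher in MI-503 than under DMSO by 0.29 (SE 0.04, edgeR adjusted p = 1.51e-05) and lower in the combination than in MI-503 by −0.21 (SE 0.04, edgeR adjusted p = 0.00103). Between the combination and DMSO it differed by 0.09 (95% interval −0.01 to 0.18, edgeR adjusted p = 0.0993). That difference was called with upper-quartile scaling (0.15), with the stricter filter (0.15) and without combination replicate 1 (0.13, edgeR adjusted p = 0.0177), while without combination replicate 4 it was 0.045 (edgeR adjusted p = 0.403). GNAI3 measured 102, 91.6, 97.4 and 97.6 CPM in DMSO, 78.4, 75.7, 79.2 and 79.1 CPM in MI-503, and 86.6, 84.5 and 90.7 CPM in the combination. Its 3 ranges did not overlap, with DMSO highest and MI-503 lowest. GNAI3 was lower in MI-503 than under DMSO by −0.32 (SE 0.04, edgeR adjusted p = 9.6e-06) and higher in the combination than in MI-503 by 0.16 (SE 0.05, edgeR adjusted p = 0.00806). The call over MI-503 was lost without combination replicate 4, where the difference was 0.09 (edgeR adjusted p = 0.122). The remaining combination libraries (86.6 and 84.5 CPM) were still above each MI-503 library. The combination was lower than DMSO by −0.16 (edgeR adjusted p = 0.0066), which was not called with upper-quartile scaling (−0.09), without a filter (−0.13) or with the stricter filter (−0.09). Among its exon bases 4.28% have a near-identical copy elsewhere in the genome, so that part of the gene may be undercounted.

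In the Gq class, GNAQ and GNA11 were lower than DMSO in both treated groups and GNA15 in the combination. GNA15, a subunit known from hematopoietic cells that couples to many receptors, lies on chromosome 19 (3136033 to 3163749, plus strand), 12.03 kb from GNA11 (3094362 to 3123999, plus strand). GNA15 measured 190, 241, 193 and 186 CPM in DMSO, 190, 196, 206 and 195 CPM in MI-503, and 128, 135 and 129.6 CPM in the combination. DMSO replicate 2 was above the rest of its group, DMSO and MI-503 overlapped, and all combination libraries were below all others. In the combination GNA15 differed from DMSO by −0.63 (SE 0.07, edgeR adjusted p = 6.37e-07) and from MI-503 by −0.59 (SE 0.07, edgeR adjusted p = 4.29e-06), the largest falls among the 10 genes in these comparisons. Without DMSO replicate 2 the first was −0.54. MI-503 and DMSO differed by −0.04 (95% interval −0.18 to 0.10, edgeR adjusted p = 0.635), a sign that turned under 5 alternatives. Exons that GNA15 shares with another annotated gene make up 7.04% of its exon bases, and fragments lying in both genes were left out.

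GNA11 measured 32.1, 35.1, 33.1 and 28.7 CPM in DMSO, 25.7, 26.4, 25.7 and 22.7 CPM in MI-503, and 25.4, 26.4 and 24.1 CPM in the combination. Both treated groups lay below DMSO and overlapped each other. It was lower than in DMSO by −0.36 in MI-503 (SE 0.07, edgeR adjusted p = 2.53e-04) and by −0.35 in the combination (SE 0.07, edgeR adjusted p = 3.78e-04), while the treated groups differed by 0.01 (95% interval −0.14 to 0.16, edgeR adjusted p = 0.951). GNAQ (chromosome 9, 77716097 to 78031811, minus strand) measured 104, 107, 99.7 and 103 CPM in DMSO, 84.4, 85.2, 84.5 and 90.2 CPM in MI-503, and 76.1, 84.1 and 87.4 CPM in the combination. It had the same order, with both treated groups below DMSO. GNAQ was lower than in DMSO by −0.27 in MI-503 (SE 0.05, edgeR adjusted p = 1.41e-04) and by −0.33 in the combination (SE 0.05, edgeR adjusted p = 2.02e-05). Between the combination and MI-503 it differed by −0.06 (95% interval −0.17 to 0.04, edgeR adjusted p = 0.323), by −0.15 without combination replicate 4 (edgeR adjusted p = 0.0352) and by −0.031 without combination replicate 1 (edgeR adjusted p = 0.622). The GNAQ counts are uncertain, because 77.9% of its exon bases have a copy of at least 100 bases and 95% identity elsewhere in hg38, most of it on chromosome 2 (5069 aligned bases at a mean identity of 96.4%). Fragments that mapped to several places were left out.

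In the G12 class, both genes were above DMSO in MI-503, and in the combination GNA12 was below and GNA13 above it. GNA12 (chromosome 7, 2728105 to 2844308, minus strand) measured 71.9, 75.3, 71.6 and 71.6 CPM in DMSO, 76.4, 78.3, 81.5 and 80.5 CPM in MI-503, and 67.8, 64.5 and 63.4 CPM in the combination. Its 3 ranges did not overlap, with MI-503 highest and the combination lowest. It was higher in MI-503 than under DMSO by 0.13 (SE 0.04, edgeR adjusted p = 0.0154) and lower in the combination than in MI-503 by −0.28 (SE 0.04, edgeR adjusted p = 6.24e-05). The fall of the combination below DMSO, −0.15 (edgeR adjusted p = 0.0059), was not called with upper-quartile scaling (−0.08), without a filter (−0.13) or with the stricter filter (−0.09). GNA13 (chromosome 17, 65009289 to 65056740, minus strand) measured 91.8, 93.8, 83.7 and 91.6 CPM in DMSO, 108, 106, 105 and 108 CPM in MI-503, and 109, 103 and 117 CPM in the combination. Both treated groups lay above DMSO and overlapped each other. GNA13 was higher than in DMSO by 0.24 in MI-503 (SE 0.05, edgeR adjusted p = 3.09e-04) and by 0.28 in the combination (SE 0.05, edgeR adjusted p = 8.61e-05), and the treated groups differed by 0.04 (95% interval −0.06 to 0.14, edgeR adjusted p = 0.543).

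GNB1 encodes a beta subunit, which with a gamma subunit holds the resting alpha subunit and signals by itself once released (chromosome 1, 1785285 to 1891117, minus strand). It measured 445, 429.8, 435 and 436 CPM in DMSO, 394, 403, 416 and 409.5 CPM in MI-503, and 337, 358 and 382 CPM in the combination. The ranges did not overlap and went down from DMSO to MI-503 to the combination. The combination was lower than DMSO by −0.28 (SE 0.05, edgeR adjusted p = 3.51e-05) and than MI-503 by −0.18 (SE 0.05, edgeR adjusted p = 0.00408). MI-503 was lower than DMSO by −0.11 (SE 0.04, edgeR adjusted p = 0.0438), a call that was lost on leaving out any single library (−0.12 to −0.06) and with RLE factors (−0.08), upper-quartile factors (−0.04) or DESeq2 (−0.08).

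ADCY7, an adenylyl cyclase that is prominent in blood cells and makes cAMP from ATP, had the largest difference of the 10 genes from DMSO (chromosome 16, 50246138 to 50318135, plus strand). It measured 117, 125, 119 and 116 CPM in DMSO, 206, 207, 205 and 206 CPM in MI-503, and 207, 215 and 221 CPM in the combination. All treated libraries were above all DMSO libraries. ADCY7 was higher than in DMSO by 0.79 in MI-503 (SE 0.04, edgeR adjusted p = 8.09e-11), a rise of 72.7%, and by 0.85 in the combination (SE 0.04, edgeR adjusted p = 2.11e-11). The treated groups differed by 0.06 (95% interval −0.03 to 0.14, edgeR adjusted p = 0.242). Exons shared with its neighbour BRD7 make up 31.9% of the exon bases of ADCY7, and the counting used no strand and left out fragments lying in both genes. BRD7 itself went from 77.5 ± 1.85 CPM in DMSO to 65.5 ± 0.71 in MI-503 and 57.6 ± 3.38 in the combination, so it was lower by −0.24 in MI-503 than in DMSO (edgeR adjusted p = 1.34e-04).

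To compare levels between genes, CPM were divided by exon length (FPKM, fragments per kilobase of annotated exons, on the CPM scale). This scale depends on the exons that the annotation lists, which for GNAS include those of several start sites, and on the fragments lost to copies and shared exons, as in GNAQ and ADCY7. In DMSO the order of FPKM levels was GNB1 (125 ± 1.82, SD, n = 4), GNAI2 (116 ± 2.85), GNA15 (89.1 ± 11.4), GNAS (89.0 ± 2.13), ADCY7 (17.5 ± 0.558), GNAQ (14.9 ± 0.437), GNA12 (13.6 ± 0.334), GNA13 (12.4 ± 0.611), GNAI3 (10.7 ± 0.480) and GNA11 (7.69 ± 0.638). GNA15 and GNAS overlapped in their ranges, and each other neighbour in the order was apart from the next. In MI-503, GNAI2 (143 ± 4.57 FPKM) stood above GNB1 (116 ± 2.71), and GNAS overlapped with GNA15 and GNA12 with GNA13. In the combination the FPKM order began with GNAI2 (123.5 ± 5.83, n = 3), GNB1 (103 ± 6.47), GNAS (74.5 ± 0.847) and GNA15 (57.6 ± 1.64), all apart, and GNA12 overlapped with GNAQ. The 8 alpha subunits summed to 354 ± 12.1 FPKM in DMSO, 376 ± 8.65 in MI-503 and 310.4 ± 6.02 in the combination. GNAI2 made up 32.9% of that sum in DMSO, 37.9% in MI-503 and 39.8% in the combination, GNA15 25.1%, 23.0% and 18.6%, and GNAS 25.2%, 24.0% and 24.0%. GNAS held 24.0% of the sum in both treated groups, where its CPM differed, because the sum of the 8 genes was lower in the combination as well.

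**Figure D3:**
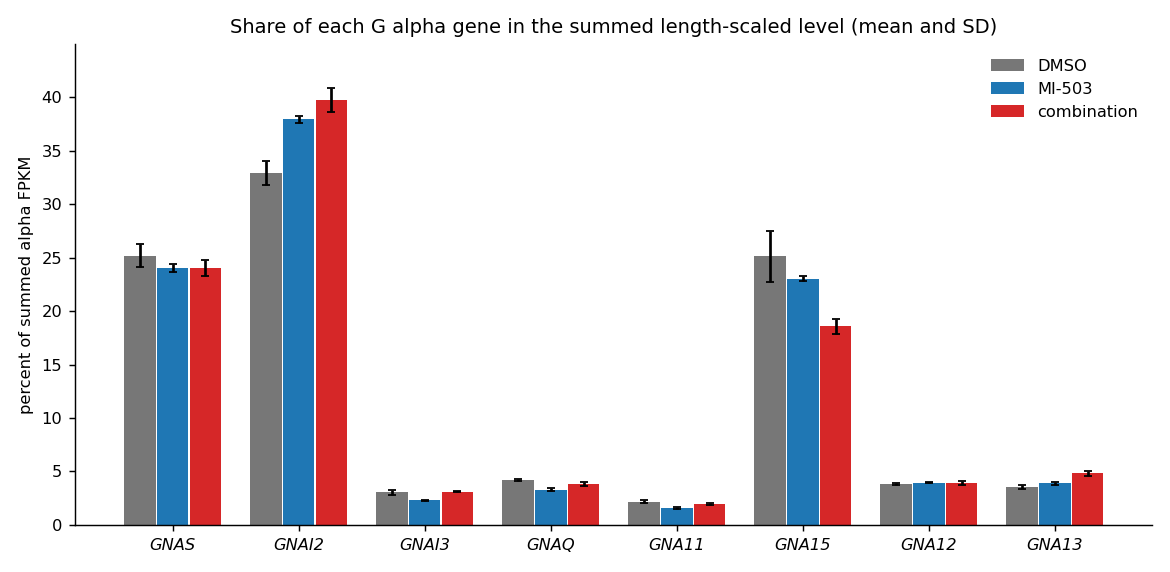
Percent of the summed FPKM of the 8 alpha subunit genes held by each gene (bars from 0, mean; error lines, SD) in DMSO (n = 4), MI-503 (n = 4) and the combination (n = 3). GNAI2 holds 32.9%, 37.9% and 39.8% and GNA15 25.1%, 23.0% and 18.6%, while the remaining alpha genes other than GNAS each hold at most 5.06% in every library.

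Stimulatory and inhibitory subunits were also compared as a ratio of FPKM levels within each library. GNAS over the sum of GNAI2 and GNAI3 was 0.688, 0.696, 0.71 and 0.708 in DMSO, 0.611, 0.605, 0.582 and 0.591 in MI-503, and 0.582, 0.574 and 0.525 in the combination. Each DMSO ratio was above each ratio in the treated groups, and the treated groups overlapped at their edge. Means ± SD were 0.701 ± 0.0103 (DMSO), 0.597 ± 0.0134 (MI-503) and 0.561 ± 0.0308 (combination). On the log2 scale the ratio was lower than in DMSO by −0.23 in MI-503 and by −0.32 in the combination, each with a two-sided exact permutation p of 0.0286, the smallest these group sizes allow (adjusted p = 0.0343 over 6 tests). The combination and MI-503 differed by −0.09 (exact permutation p = 0.0571, adjusted p = 0.0571), and by −0.046 without combination replicate 4 (exact permutation test, adjusted p = 0.2). Matched by replicate number, which is not known to pair libraries, the combination had the lower ratio in all 3 pairs, and the test did not use the pairs. In MI-503 the lower ratio came with GNAI2 CPM above those of DMSO and GNAS CPM that overlapped them, and in the combination with GNAS CPM below those of DMSO.

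GNAI2 over GNAI3 measured 10.51, 11.4, 11.003 and 10.45 in DMSO, 15.9, 17.0, 17.0 and 16.2 in MI-503, and 12.5, 12.9 and 12.99 in the combination. The 3 ranges were apart, with means of 10.8 ± 0.445 (SD, n = 4), 16.5 ± 0.561 (n = 4) and 12.8 ± 0.243 (n = 3). The ratio was higher than in DMSO by 0.61 in MI-503 and by 0.24 in the combination on the log2 scale, and lower in the combination than in MI-503 by −0.37. The exact permutation p was 0.0286 for all 3 differences, and 0.0343 after adjustment.

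**Figure D4:**
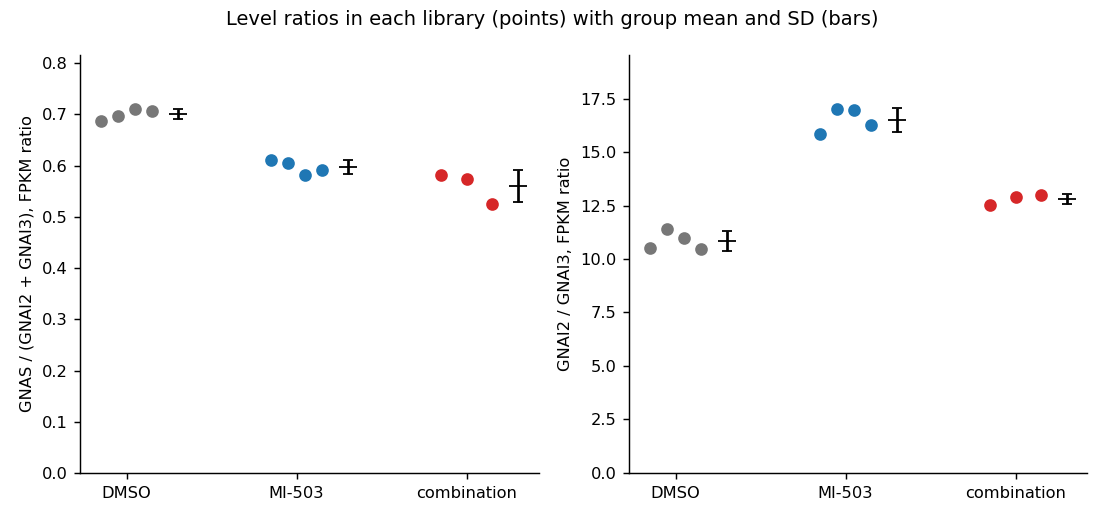
Ratio of FPKM levels in each library (points in replicate order) with the mean and SD (black bars), left for GNAS over the sum of GNAI2 and GNAI3, right for GNAI2 over GNAI3, both axes from 0. DMSO ratios lie at 0.688 to 0.71 on the left, above the treated groups, and the right panel shows 3 separate ranges with MI-503 highest.

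The genes whose log2 CPM most resembled that of GNAS over the 11 libraries were SPN, PAK2, BARX1, DEAF1 and CTDNEP1, out of 10041 genes that averaged 5 CPM or more. SPN, which encodes the leukocyte surface protein CD43, had a Pearson r of 0.987 and went from 629 ± 42.5 CPM in DMSO and 677 ± 56.0 in MI-503 to 312.5 ± 19.2 in the combination. PAK2, a protein kinase gene, had an r of 0.985 and stood at 184 ± 3.33, 185 ± 1.84 and 161 ± 1.64 CPM in that order. BARX1, DEAF1 and CTDNEP1 each had an r of 0.984. Among the members, r with GNAS was 0.905 for GNA15, 0.854 for GNA12, 0.801 for GNB1, 0.464 for GNAQ, 0.36 for GNA11, 0.282 for GNAI2, −0.068 for GNAI3, −0.447 for ADCY7 and −0.503 for GNA13. The points share 3 groups, so r mostly describes the step between the combination and the other libraries, and no p is given.

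Around the 10 genes, a list of 131 genes of the same pathway, in 12 groups by role, was counted. Of these, 89 were tested. Between MI-503 and DMSO 36 were higher and 15 lower (57.3% called, median 0.05), between the combination and DMSO 32 higher and 24 lower (62.9%, median 0.07), and between the combination and MI-503 14 higher and 29 lower (48.3%, median −0.02). Those shares stood beside 51.4%, 64.5% and 47.4% of all tested genes. Upper-quartile scaling changed the split to 39 higher and 9 lower in the first comparison and to 36 and 14 in the second. DESeq2 gave 9 higher and 31 lower in the third, and without combination replicate 1 it was 10 and 35. In each role below, counts and medians are given in the order MI-503 vs DMSO, combination vs DMSO and combination vs MI-503.

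Receptors that couple to Gs are the input to GNAS, and among them PTGER4 rose in both treated groups. Of 13 such genes 8 were tested: 5 were higher and 2 lower in the first comparison, 4 and 1 in the second, and 3 and 3 in the third (medians 0.37, 0.24 and 0.00). PTGER4, a receptor for prostaglandin E, went from 12.6 ± 0.257 CPM in DMSO to 54.2 ± 0.547 in MI-503 and 61.8 ± 7.83 in the combination. Its log2 fold change over DMSO was 2.11 in MI-503 (SE 0.07, edgeR adjusted p = 2.26e-12) and 2.29 in the combination (SE 0.07, edgeR adjusted p = 2.29e-13). The receptor genes HRH2 (histamine) and ADORA2B (adenosine) were lower in the combination than in MI-503, by −0.34 (edgeR adjusted p = 7.08e-04) and −0.24 (edgeR adjusted p = 0.0117). In MI-503 both were called above DMSO, by 0.23 and 0.51. Against DMSO, the combination was not called for HRH2 (−0.11, edgeR adjusted p = 0.170) and was higher for ADORA2B (0.27, edgeR adjusted p = 0.00534).

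The 12 genes of gamma subunits, which partner the alpha subunits with a beta subunit, had 7 tested, with 2 higher and 1 lower, 1 and 2, and 0 and 4 (medians −0.09, 0.04 and −0.27). GNG7 measured 23.8 ± 1.27 CPM in DMSO, 62.2 ± 3.19 in MI-503 and 34.9 ± 5.49 in the combination. It was above DMSO by 1.38 and 0.56, and lower in the combination than in MI-503 by −0.82 (SE 0.08, edgeR adjusted p = 4.14e-07). GNG4 fell from 3.76 ± 0.45 to 1.98 ± 0.39 and 0.92 ± 0.291 CPM, by −0.94 in MI-503 (edgeR adjusted p = 2.35e-04) and by −1.97 in the combination (edgeR adjusted p = 2.91e-07), and by −1.02 between them (edgeR adjusted p = 0.00115). The other 4 beta subunit genes were all tested, with 0 higher and 1 lower, 0 and 1, and 0 and 2 (medians −0.01, −0.08 and −0.21). GNB4 fell from 117 ± 4.23 CPM to 90.2 ± 2.82 and 68.7 ± 3.67, by −0.38 and −0.77 against DMSO and by −0.39 between the treated groups (edgeR adjusted p = 4.91e-06). GNB5 was lower in the combination than in MI-503 by −0.34 (SE 0.11, edgeR adjusted p = 0.0173), at 14.8 ± 3.44 against 18.9 ± 0.853 CPM. The ranges of these groups overlapped for GNB5. Its combination level was not called against DMSO (−0.10, edgeR adjusted p = 0.441). Of 8 other alpha subunit genes, GNAL was the 1 that was tested. This close relative of GNAS lay at 0.937 ± 0.289, 1.501 ± 0.264 and 1.85 ± 0.122 CPM and was higher by 0.68 in MI-503 (edgeR adjusted p = 0.0144) and by 0.99 in the combination (edgeR adjusted p = 8.82e-04) than in DMSO. In it, 29.8% of exon bases also belong to another gene.

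The enzymes that make and remove cAMP changed in both directions. Of 9 other adenylyl cyclase genes 3 were tested, with 1 higher and 0 lower, 0 and 1, and 1 and 1 (medians 0.15, 0.07 and 0.19). ADCY3 was higher in MI-503 than in DMSO by 0.15 (edgeR adjusted p = 0.00987), below DMSO in the combination by −0.12 (edgeR adjusted p = 0.0418) and lower than in MI-503 by −0.27 (edgeR adjusted p = 2.27e-04). In it, 20.1% of exon bases also belong to another gene. ADCY9 was higher in the combination than in MI-503 by 0.19 (edgeR adjusted p = 0.0355). Of 14 phosphodiesterase genes, whose products break down cAMP, 10 were tested, with 4 higher and 1 lower, 2 and 3, and 1 and 3 (medians 0.02, −0.17 and −0.12). PDE1B went from 33.2 ± 2.55 CPM to 53.7 ± 3.59 and 58.5 ± 5.10, higher by 0.70 (edgeR adjusted p = 2.53e-07) and 0.83 (edgeR adjusted p = 2.21e-08) than in DMSO. PDE4A lay at 87.3 ± 1.81 and 84.3 ± 2.37 CPM in DMSO and MI-503 and at 52.9 ± 8.76 in the combination, below DMSO by −0.71 (edgeR adjusted p = 2.65e-07) and than in MI-503 by −0.66 (edgeR adjusted p = 2.04e-06). PDE7A was higher in MI-503 than in DMSO by 0.29 (edgeR adjusted p = 1.47e-05) and lower in the combination than in MI-503 by −0.45 (edgeR adjusted p = 4.38e-07).

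Genes that carry the cAMP signal onward comprised protein kinase A (PKA) subunits and inhibitors, the exchange factors called EPAC, and the CREB factors. Of 18 such genes 15 were tested, with 7 higher and 2 lower, 8 and 3, and 4 and 4 (medians 0.13, 0.24 and −0.02). PRKAR2B, a regulatory PKA subunit, measured 9.54 ± 0.426 CPM in DMSO, 21.1 ± 1.08 in MI-503 and 19.5 ± 4.92 in the combination. It exceeded DMSO by 1.14 (edgeR adjusted p = 4.11e-07) and 1.05 (edgeR adjusted p = 8.26e-07). PKIB, a PKA inhibitor, went from 0.76 ± 0.193 CPM to 3.51 ± 0.214 and 1.47 ± 0.217. It was higher in MI-503 than under DMSO by 2.23 (SE 0.18, edgeR adjusted p = 4.03e-08) and lower in the combination than in MI-503 by −1.22 (SE 0.17, edgeR adjusted p = 1.94e-05). RAPGEF3, which encodes EPAC1, was higher in the combination than under DMSO by 1.48 (SE 0.15, edgeR adjusted p = 1.09e-07), at 5.45 ± 0.182 against 1.97 ± 0.350 CPM. In MI-503 alone it was already higher than under DMSO by 1.13 (edgeR adjusted p = 4.69e-06), at 4.29 ± 0.497 CPM. The combination exceeded MI-503 by 0.35 (edgeR adjusted p = 0.0349). CREM, a cAMP-responsive transcription factor gene, was higher in the combination than in MI-503 by 0.60 (SE 0.11, edgeR adjusted p = 2.19e-04). Against DMSO it was lower in MI-503 by −0.30 (edgeR adjusted p = 0.0230) and higher in the combination by 0.30 (edgeR adjusted p = 0.0212). Of 7 genes known to respond to cAMP 4 were tested, with 1 higher and 1 lower, 1 and 1, and 0 and 0 (medians −0.18, −0.12 and 0.00). CITED2 was higher than in DMSO by 0.56 in MI-503 (edgeR adjusted p = 1.49e-06) and 0.40 in the combination (edgeR adjusted p = 6.32e-05), and PER1 was lower by −0.35 (edgeR adjusted p = 2.95e-05) and −0.40 (edgeR adjusted p = 8.72e-06).

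Genes that switch G proteins off, that desensitize receptors, or that act as G-protein chaperones or modulators also changed in both directions. RGS proteins speed the return of alpha subunits to the GDP state, and 12 of 18 RGS genes were tested, with 4 higher and 1 lower, 5 and 4, and 2 and 4 (medians 0.05, 0.23 and 0.14). RGS16 fell from 40.1 ± 5.52 CPM in DMSO to 16.2 ± 0.883 in MI-503 and 11.3 ± 1.43 in the combination, by −1.31 (SE 0.09, edgeR adjusted p = 7.08e-09) and −1.85 (SE 0.11, edgeR adjusted p = 1.56e-10), and by −0.54 between them. RGS18 rose from 2.92 ± 0.315 CPM to 7.04 ± 0.399 and 9.23 ± 2.36, by 1.27 (SE 0.15, edgeR adjusted p = 2.37e-06) and 1.65 (SE 0.15, edgeR adjusted p = 5.59e-08). RGS19 was lower in the combination than in MI-503 by −0.38 (edgeR adjusted p = 1.26e-04). Against DMSO it was higher in MI-503 by 0.22 (edgeR adjusted p = 0.00443) and lower in the combination by −0.16 (edgeR adjusted p = 0.0420). The 7 receptor kinase and arrestin genes were all tested, with 3 higher and 2 lower, 3 and 3, and 0 and 4 (medians 0.04, −0.02 and −0.23). GRK6 went from 83.3 ± 2.86 CPM to 121 ± 7.51 and 125 ± 3.37, higher by 0.54 and 0.59 than in DMSO, and ARRB2 was higher by 0.41 in MI-503 (edgeR adjusted p = 3.95e-07). ARRB1 measured 122 ± 3.63 and 125 ± 7.21 CPM in DMSO and MI-503 and 85.6 ± 5.39 in the combination, below DMSO by −0.51 and than in MI-503 by −0.55 (edgeR adjusted p = 4.09e-07). GRK3 was lower in the combination than in MI-503 by −0.23 (edgeR adjusted p = 0.00163). It was above DMSO in both, by 0.37 in MI-503 (edgeR adjusted p = 7.57e-06) and 0.14 in the combination (edgeR adjusted p = 0.0251). Of 7 chaperone and modulator genes, all tested, 1 was higher and 3 lower, then 0 and 4, then 1 and 3 (medians −0.16, −0.16 and −0.17). RIC8A, a chaperone of alpha subunits, was lower in MI-503 than in DMSO by −0.19, and GPSM3 was higher by 0.28 in MI-503 and lower in the combination than in MI-503 by −0.44. CCDC88A was lower in the combination by −0.35 against DMSO and −0.19 against MI-503, and GPSM2, 33.3% of whose exon bases also belong to another gene, by −0.20 against DMSO.

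Of 14 genes for effectors of Gq, of G12 and of the beta-gamma dimer 11 were tested, with 7 higher and 1 lower, 7 and 1, and 2 and 1 (medians 0.24, 0.27 and 0.04). Over all tested genes 22.0% were higher and 29.3% lower in the first comparison, 31.7% and 32.8% in the second, and 23.6% and 23.8% in the third, and the difference between the group and all genes was not tested. PREX1, an exchange factor for Rac that beta-gamma dimers activate, went from 115 ± 7.68 CPM to 248 ± 6.17 and 235 ± 11.4, higher by 1.11 (SE 0.05, edgeR adjusted p = 2.72e-11) and 1.04 (SE 0.05, edgeR adjusted p = 3.3e-11). PIK3R5, a regulatory subunit of the phosphoinositide 3-kinase that beta-gamma dimers activate, was higher in the combination than under DMSO by 1.23 (SE 0.09, edgeR adjusted p = 2.66e-09), at 27.2 ± 3.25 against 11.6 ± 1.29 CPM. In MI-503 alone it was already higher than under DMSO by 0.80 (edgeR adjusted p = 7.76e-07), at 20.2 ± 0.354 CPM. The combination exceeded MI-503 by 0.43 (edgeR adjusted p = 5.29e-04). PLCB2, a phospholipase C-beta, was higher in MI-503 by 0.61 (edgeR adjusted p = 4.91e-07). PIK3CG, the catalytic subunit that pairs with PIK3R5, was lower in the combination than in MI-503 by −0.37 (edgeR adjusted p = 3.72e-05). It was above DMSO in MI-503 by 0.33 (edgeR adjusted p = 3.91e-05) and not called against DMSO in the combination (−0.04, edgeR adjusted p = 0.596). ARHGEF11, a RhoA exchange factor, was higher in the combination than in MI-503 by 0.37 (edgeR adjusted p = 9.4e-05). It was below DMSO in MI-503 by −0.30 (edgeR adjusted p = 2.91e-04) and not called against DMSO in the combination (0.07, edgeR adjusted p = 0.334).

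**Figure D5:**
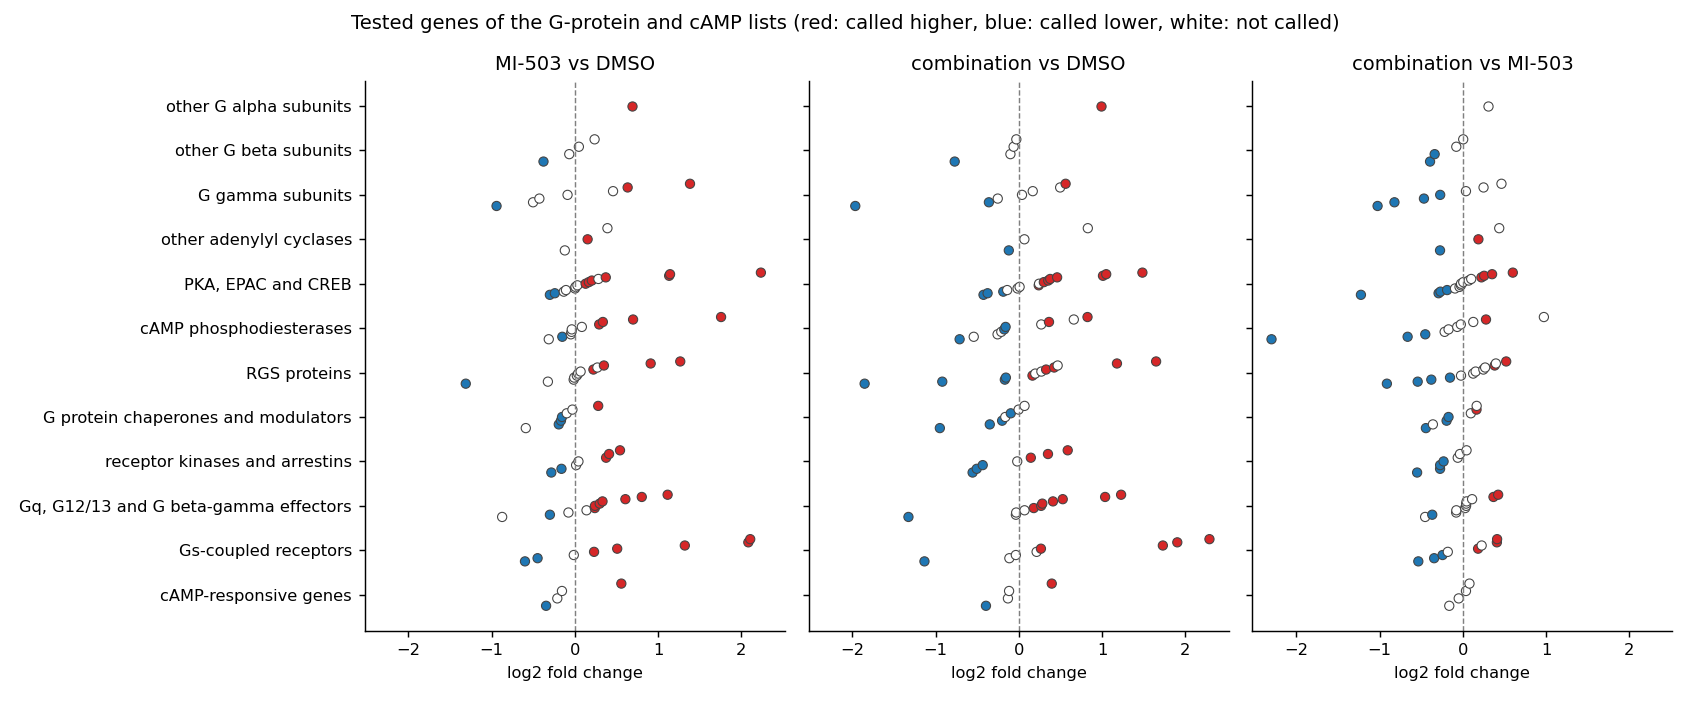
Fitted log2 fold change of each of the 89 tested pathway genes (points, spread vertically within a group only to keep them apart) in 12 groups by role and 3 comparisons, red where called higher, blue where called lower and white where not called. The Gs-coupled receptor gene PTGER4 lies at 2.11 in MI-503 vs DMSO, and gamma subunits and phosphodiesterases spread to both sides of 0.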

How the data were processed

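STAR 2.7.10a had aligned the reads to hg38 after Trimmomatic 0.39 (versions from the submitters' processing notes), and the alignments were then filtered, with no rule given. Per the file headers, the authors obtained raw counts with featureCounts 2.0.1 from RefSeq exons, without strand. Multi-mapping fragments and those lying in more than 1 gene were not counted, which can lower genes with copies or shared exons. The joined table differed from the single-library counts in 0 cells. The deposited tables of the authors' own comparisons hold log2 fold changes, standard errors and p-values from DESeq2 and were not used.

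Of 38557 genes 14683 passed filterByExpr in edgeR 4.0.16 (R 4.3.3; minimum count 10, minimum total 15). One fit with 3 group means covered all 11 libraries, with TMM factors (0.956 to 1.056) and the quasi-likelihood test, two-sided, Benjamini-Hochberg adjusted over all tested genes. The biological coefficient of variation was 6.14%. FPKM are TMM-scaled CPM per kilobase of annotated exons. Ratios were tested with exact permutation tests on log2 ratios, adjusted over 6 tests. Copies of exons were sought in hg38 with blastn at 95% identity over 100 bases or more. DESeq2 1.42.0, limma-voom (limma 3.58.1), other scalings and filters, a replicate block and leaving out libraries were alternatives. Deviations of same-numbered libraries from their group means had an r of 0.141 to 0.211 between MI-503 and the combination (3 pairs). Libraries with different numbers in these groups ranged from −0.274 (MI-503 replicate 1, combination replicate 4) to 0.269 (MI-503 replicate 3, combination replicate 4). The labels do not say what a number stands for, so pairing is not established. Same-numbered libraries gave −0.25 to 0.28 between DMSO and MI-503, and −0.06 to 0.11 between DMSO and the combination.

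All 10 members were named. From each pathway group and comparison up to 2 called genes with the smallest adjusted p were named, and the 5 genes most correlated with GNAS. Some genes that these rules name are not reported here. Members, lists and rules were chosen with earlier results of these data known. At totals of 18.9 to 41.2 M fragments, a member had between 527 (GNA11) and 24480 (GNAS) fragments in a library.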

Additional observations from a re-analysis of the deposited data

Results flagged for a closer look

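Within the groups of 4 libraries, 3 of 20 sets of member values had 1 library far from the rest by Dixon's criterion, where chance gives about 1 in 20. GNA15 measured 241 CPM in DMSO replicate 2, the highest of its group, against 186 to 193 CPM in the other DMSO libraries. GNA12 measured 75.3 CPM in the same library, against 71.6 to 71.9 CPM in the others. GNAQ measured 90.2 CPM in MI-503 replicate 4, against 84.4 to 85.2 CPM in the rest of its group. Without these libraries the calls of GNA15, GNA12 and GNAQ stayed on the same side of the threshold in all 3 comparisons, although the GNA15 difference between MI-503 and DMSO, which was not called, turned from −0.04 to 0.05.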

How the results depend on the processing

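Of 600 values (30 member comparisons under 20 alternatives), 557 kept direction and side of the threshold, 26 lost the call, 5 gained it and 12 turned sign. For 18 member comparisons all values were the same in this sense under every alternative run, among them both GNAS comparisons with the combination (−0.27 to −0.19 against DMSO, −0.31 to −0.27 against MI-503). The 12 turned values all belong to differences that were not called. GNA15 in MI-503 vs DMSO became 0.021 with upper-quartile factors, 0.025 with the stricter filter and 0.0073 with only the 2 groups compared, and −0.080 to 0.054 on leaving out single libraries, positive without DMSO replicate 2 or combination replicate 1. In combination vs MI-503, GNA11 became −0.0100 with RLE factors and −0.00997 with DESeq2, and −0.060 to 0.035 on leaving out single libraries, negative without MI-503 replicate 4 or combination replicate 1 or 2. Without combination replicate 4, GNA13 became −0.048 and ADCY7 −0.0021, where leaving out single libraries gave up to 0.045 and 0.064. GNAS in MI-503 vs DMSO was called with the stricter filter (0.086). Leaving out single libraries gave 0 to 1 members higher in combination vs MI-503. GNA12 in MI-503 vs DMSO was not called at 0.01.

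Pathway genes lower in MI-503 vs DMSO (15) became 9 with upper-quartile factors, 9 with the stricter filter and 8 at a threshold of 0.01, and 9 to 14 on leaving out single libraries (9 without DMSO replicate 1). Those lower in combination vs DMSO (24) became 14 with upper-quartile factors and 12 with the stricter filter. Those higher in combination vs MI-503 (14) became 9 with DESeq2 and 7 at 0.01, and 7 to 14 on leaving out single libraries (7 without combination replicate 2, 8 without replicate 4 and 8 without MI-503 replicate 4). The cause was not tested.

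With 1 library left out, log2 differences of the GNAS to Gi ratio were −0.24 to −0.22 (MI-503 vs DMSO) and −0.35 to −0.28 (combination vs DMSO), with −0.12 to −0.046 in combination vs MI-503, and those of the GNAI2 to GNAI3 ratio 0.59 to 0.63, 0.22 to 0.27 and −0.39 to −0.35 in the 3 comparisons. Adjusted exact permutation p-values then rose to at most 0.2, where with fewer libraries the smallest exact p of some of the 6 tests rises. For both ratios, the MI-503 vs DMSO call was lost in 4 of 8 such cases and the combination vs DMSO call in 7 of 7. The call of the GNAI2 to GNAI3 ratio in combination vs MI-503 was also lost in 7 of 7. With 1 library fewer, a comparison with the combination cannot reach an exact permutation p under 0.05. Its losses in 7 of 7 were thus fixed by the group sizes and say nothing about the ratios. The replicate block changed no call of a member. With the block, GNAS differed by −0.27 between the combination and MI-503 (edgeR adjusted p = 1.33e-04), and by −0.25 between the combination and DMSO.

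Counts per library ran from 527 to 1076 fragments for GNA11, the shallowest member, so counting error is part of the spread between libraries. The small number of libraries, 1 cell line, the lack of PR-957 alone and counts per gene that merge promoters and isoforms limit what these data can show.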
